A study of Mus musculus with 11 samples.

Results

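The 78 protein-coding genes of the mitochondrial ribosome whose mouse symbols begin with Mrpl or Mrps and a number were described, taken from 46517 gene identifiers in the deposited count table. Of these, 49 carried Mrpl (large subunit) and 29 carried Mrps (small subunit) symbols. The annotation holds 5 further genes with such symbols that are not typed as protein-coding, and these were left out. RNA from the whole ventricular myocardium of mice was sequenced in bulk, in 4 groups and 11 libraries. KO TAC, KO sham and WT TAC had 3 libraries each, and WT sham had 2. KO mice were Lmnb2 fl/fl with Tnnt2-Cre, so that the lamin B2 gene is deleted where the cardiomyocyte promoter drives the recombinase. WT mice carried Tnnt2-Cre alone, so every group had the recombinase, and WT sham 2 was labelled WT where the other controls were labelled Lmnb2 WT. Surgery was done at 10 to 12 weeks of age. It was transverse aortic constriction (TAC), a band around the aortic arch against which the left ventricle must pump, or a sham operation. The sources used here give neither the time from surgery to sampling nor the mouse strain.

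The mitochondrial ribosome translates the few proteins that the mitochondrial genome encodes, all of them subunits of the respiratory chain and ATP synthase. Its proteins are encoded in the nucleus, made on cytoplasmic ribosomes and imported, while its rRNAs come from the mitochondrial genome itself. Some members descend from proteins of the bacterial ribosome, and others exist only in mitochondria. The heart depends on this machinery because its cardiomyocytes are packed with mitochondria.

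Promoter windows from RefSeq (build GRCm38.p6, 250 bases before to 50 after each annotated start) were found for 69 of the 78 members. Those of 3 members are shown as examples. Each holds a motif marked below, which was not so for every member that fell after TAC. The 3 are Mrpl39 and Mrpl37, which fell after TAC, and Mrpl33, the member with the largest ratio of highest to lowest library. In Mrpl39, on the minus strand at chr16:84735195-84735494, capitals mark the NRF1 core (GCATGCGC) overlapping its own reverse complement (GCGCATGC). In Mrpl37, on the minus strand at chr4:107066817-107067116, capitals mark an E box (CACGTG) and a YY1 motif (AAGATGGC). In Mrpl33, on the plus strand at chr5:31613701-31614000, they mark the NRF1 core in reverse complement and an ETS motif (CCGGAAG).
Mrpl39: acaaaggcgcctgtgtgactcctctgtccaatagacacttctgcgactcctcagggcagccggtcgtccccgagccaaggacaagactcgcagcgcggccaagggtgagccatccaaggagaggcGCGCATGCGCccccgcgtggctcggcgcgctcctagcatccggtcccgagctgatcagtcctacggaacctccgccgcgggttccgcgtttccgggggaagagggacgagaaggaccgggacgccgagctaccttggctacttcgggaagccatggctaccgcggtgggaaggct
Mrpl37: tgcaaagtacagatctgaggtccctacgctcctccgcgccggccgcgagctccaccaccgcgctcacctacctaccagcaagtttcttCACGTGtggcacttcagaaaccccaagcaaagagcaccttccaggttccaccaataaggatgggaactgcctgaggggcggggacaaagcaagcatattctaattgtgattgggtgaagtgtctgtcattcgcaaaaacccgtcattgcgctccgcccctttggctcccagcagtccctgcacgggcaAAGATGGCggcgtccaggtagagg
Mrpl33: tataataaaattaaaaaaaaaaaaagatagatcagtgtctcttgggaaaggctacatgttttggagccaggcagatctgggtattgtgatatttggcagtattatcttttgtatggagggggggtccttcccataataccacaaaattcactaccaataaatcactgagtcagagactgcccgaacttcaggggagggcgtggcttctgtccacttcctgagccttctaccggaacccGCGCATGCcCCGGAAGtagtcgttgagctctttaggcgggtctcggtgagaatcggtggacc

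Motifs were searched on both strands, and a gene counted once if any of its windows held the letters. The ETS motif was present in 26 of the 69 members (37.7%), in 41.4% of 58 cytoplasmic ribosomal protein genes and in 18.8% of the 10944 tested genes with a window. YY1 letters were present in 12 members (17.4%), against 10.3% of cytoplasmic ribosomal protein genes and 4.92% of tested genes. The NRF1 core was present in 8 members (11.6%), in 5.17% of cytoplasmic ribosomal protein genes and in 5.71% of tested genes. The E box was present in 7.25% of members and 11.4% of tested genes, and the SP1 motif (GGGCGG) in 49.3% and 66.6%. A TATA box (TATAAA) was present in 7.25% of members and 9.33% of tested genes. Among other members that fell after TAC and had a window, Mrps31 and Mrpl45 held none of these motifs. Mrps5 and Mrps9 held only SP1. These are matches of letters in a window, with no measurement of binding.

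The libraries held 14770383 to 17333227 counts each, of which 50050 to 129810 fell on the members. Levels are given as TMM-scaled CPM, the counts of a gene relative to the scaled library total. Lmnb2 itself measured 9.72, 3.24 and 4.46 CPM in KO TAC, 0.649, 1.81 and 2.43 CPM in KO sham, 2.86, 2.16 and 6.70 CPM in WT TAC, compared with 4.44 and 3.86 CPM in WT sham. It was below both WT sham libraries in all 3 KO sham libraries, but KO TAC 1 had the highest level of all 11, so KO below means libraries labelled KO. The defining markers of cardiomyocytes, such as Myh6 and Tnnt2, were present in every library. Genes of the mitochondrial genome took 22.3 to 35.9% of counts in KO TAC, 38.5 to 46.4% in KO sham, 13.2 to 30.5% in WT TAC and 32.8 to 49.4% in WT sham. The letter that ends the sample titles was F in KO TAC 3, KO sham 2 and WT TAC 1, and M in the other libraries.

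Summed mitochondrial ribosomal protein mRNA did not separate the groups. The Mrpl genes together measured 1798, 3992 and 3975 CPM in KO TAC, 5002, 2809 and 4130 CPM in KO sham, 6008, 4832 and 2266 CPM in WT TAC, compared with 4301 and 2823 CPM in WT sham. The Mrps genes together measured 717, 1354 and 1360 CPM in KO TAC, 1791, 1087 and 1468 CPM in KO sham, 1726, 1645 and 886 CPM in WT TAC, compared with 1636 and 1117 CPM in WT sham. For both sums the ranges of the 4 groups overlapped, and KO TAC 1 and WT TAC 3 were the lowest libraries. The log2 ratio of the group means of the total was -0.30 for KO TAC over KO sham and 0.23 for WT TAC over WT sham. Leaving out 1 library moved it between -0.49 and -0.02 in KO, the value nearest 0 coming without KO TAC 1. In WT it was -0.04 without WT TAC 1 or WT sham 2 and 0.55 without WT sham 1.

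**Figure D1:**
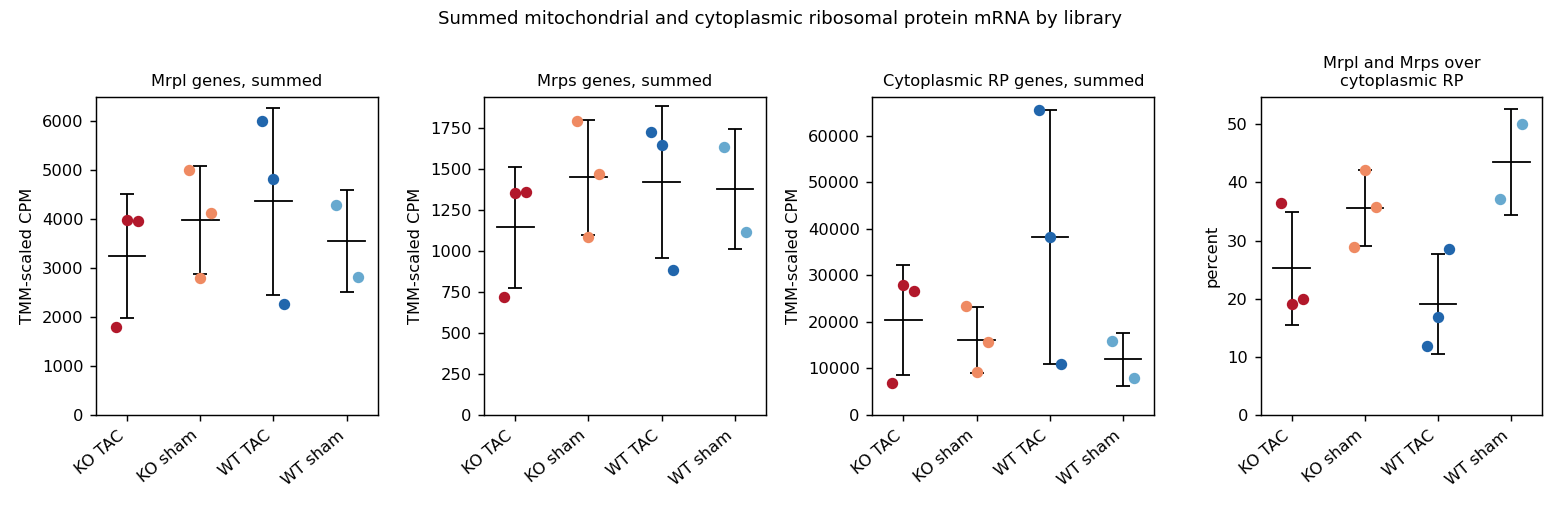
Summed levels by library in TMM-scaled CPM for Mrpl genes, Mrps genes and cytoplasmic ribosomal protein (RP) genes, and the mitochondrial sum as a percent of the cytoplasmic one. Points are libraries and bars the group mean and SD (n = 3, 3, 3 and 2); KO TAC 1 and WT TAC 3 lie lowest in their groups in the first 3 panels.

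Mrpl mRNA exceeded Mrps mRNA in every library, with a ratio of the sums of 2.51 to 2.95 in KO TAC, 2.58 to 2.81 in KO sham, 2.56 to 3.48 in WT TAC and 2.53 to 2.63 in WT sham. Set against the 79 cytoplasmic ribosomal protein genes, the members' summed mRNA came to 36.5%, 19.2% and 19.99% in KO TAC and 28.9%, 42.1% and 35.8% in KO sham. It came to 11.8%, 16.9% and 28.5% in WT TAC and 37.1% and 49.98% in WT sham. The WT TAC libraries were all below the WT sham libraries, while KO TAC 1 lay within the KO sham range. The log2 ratio of the mean percents was -0.50 in KO (-0.86 to -0.33 with 1 library left out) and -1.19 in WT (-1.60 to -0.94). The cytoplasmic sums behind it were 6899.9, 27907 and 26687 CPM in KO TAC, 23489, 9254 and 15651 CPM in KO sham, 65393, 38231 and 11052 CPM in WT TAC, compared with 15987 and 7884 CPM in WT sham.

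Members differed widely in level. Scaled by transcript length, the large subunit was led by Mrpl42, a protein found only in mitochondria, with 665 CPM per kb over all libraries. Mrpl33 and Mrpl30, both of bacterial descent, followed with 424 and 297 CPM per kb. The lowest tested large subunit genes were Mrpl47 (8.32 CPM per kb) and Mrpl19 (6.66 CPM per kb). Among genes with Mrps symbols Mrps21 (170.0 CPM per kb), Mrps18a (103 CPM per kb) and Mrps17 (77.5 CPM per kb) were highest, while Mrps26 (5.92 CPM per kb) and Mrps34 (3.56 CPM per kb) were lowest. The protein of Mrps18a, like that of Mrps30, sits in the large subunit in spite of its symbol. Per library, Mrpl42 measured 225, 443 and 422 CPM in KO TAC, 748, 406 and 547 CPM in KO sham, 476, 353 and 264 CPM in WT TAC, compared with 554 and 396 CPM in WT sham. Mrpl53 had 1 count in all and was the only member not tested. It shares 88.0% of its exon bases on its own strand with Ccdc142os and Gm42688, and the part of this in its count was not tested. Mrps34 shares 77.8% of its exon bases with Mapk8ip3 and Nme3, 37.0% of them on its own strand, so its low level is uncertain.

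By role, the stalk of the large subunit, which recruits translation factors, was represented by Mrpl12 at 126 ± 53.4 CPM in KO TAC, 143 ± 51.0 CPM in KO sham, 163 ± 74.9 CPM in WT TAC, compared with 122.9 ± 74.8 CPM in WT sham (SD, n = 3, 3, 3 and 2). The other stalk genes, Mrpl10 and Mrpl11, averaged 46.0 ± 10.4 and 79.7 ± 44.8 CPM in KO TAC, 60.5 ± 12.2 and 80.1 ± 28.8 CPM in KO sham, 45.4 ± 9.06 and 113 ± 60.5 CPM in WT TAC, compared with 59.7 ± 12.8 and 67.98 ± 27.999 CPM in WT sham (SD, same n). Near the exit of the peptide tunnel, Mrpl22, Mrpl23 and Mrpl24 averaged 29.2 ± 11.5, 11.3 ± 6.53 and 37.99 ± 14.7 CPM in KO TAC and 34.99 ± 7.99, 13.6 ± 3.70 and 38.3 ± 9.09 CPM in KO sham. They averaged 31.8 ± 10.8, 12.5 ± 5.34 and 41.9 ± 12.9 CPM in WT TAC, compared with 36.5 ± 8.57, 9.41 ± 4.29 and 33.3 ± 11.8 CPM in WT sham. Mrps12 in the decoding centre measured 19.3 ± 2.11 CPM in KO TAC, 30.0 ± 5.87 CPM in KO sham, 23.4 ± 6.75 CPM in WT TAC, compared with 28.98 ± 8.70 CPM in WT sham (SD, same n). Of the Mrps18 paralogs, Mrps18a averaged 77.6 CPM over all libraries, Mrps18c 39.4 CPM and Mrps18b 7.95 CPM. Mrps30 averaged 37.8 CPM. Mrps36, also described as a subunit of the oxoglutarate dehydrogenase complex, averaged 23.5 CPM. None of these members was called in any comparison by the main edgeR fits at an adjusted p under 0.05.

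Many members had their extreme values in the same few libraries. The library labelled KO TAC 1 held the lowest value of 60 of the 77 tested members, and WT TAC 1 the lowest of 9. The highest value fell on WT TAC 1 for 28 members, on KO sham 1 for 16, on WT TAC 2 for 14 and on WT sham 1 for 11. Cytoplasmic ribosomal protein genes shared this pattern, with 69 of 77 highest in WT TAC 1 and 53 lowest in KO TAC 1. The members' spread was smaller, with a median SD of log2 CPM within groups of 0.51, against 1.04 for cytoplasmic genes. The median gene's highest library exceeded its lowest 3.43-fold among members and 10.9-fold among cytoplasmic genes.

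**Figure D2:**
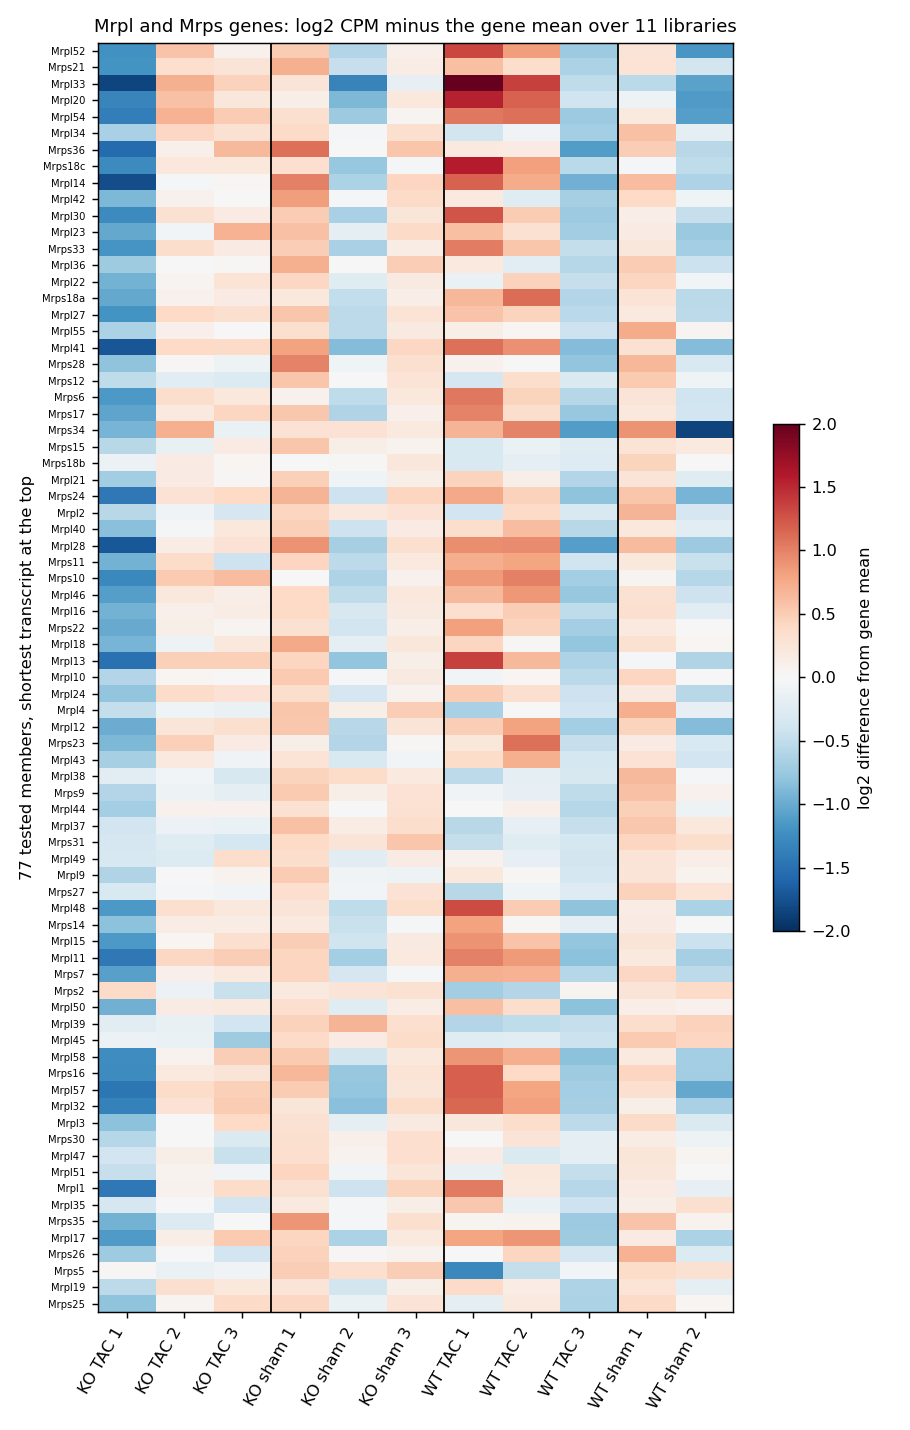
Difference of each tested member (rows, shortest transcript at the top) from its own mean over the 11 libraries, in log2 CPM, with libraries in columns by group. KO TAC 1 is low for most rows (lowest of 60 of the 77), while WT TAC 1 and WT TAC 2 are high for many.

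Mrpl33 had the widest range, with a highest library 23.1 times its lowest. It measured 37.2, 220.5 and 184 CPM in KO TAC, 159.8, 52.7 and 119.6 CPM in KO sham, 860.2, 345 and 94.7 CPM in WT TAC, compared with 91.8 and 63.5 CPM in WT sham. Mrps34 (14.99-fold) and Mrpl14 (7.96-fold) came next, and Mrpl49 was the narrowest with 1.66-fold. Mrpl33 is one of the shortest members, with a median transcript of 478 bases.

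TAC against sham over both genotypes, the comparison with the most libraries, called 8 members lower and 0 higher at an adjusted p under 0.05 (edgeR, quasi-likelihood test, Benjamini-Hochberg over 14619 genes). All 8 encode structural proteins of the ribosome, 5 of the large and 3 of the small subunit. The share of members called lower, 10.4%, was close to the 8.96% of all tested genes called lower, and 10.6% of all genes were called higher. Over all members the median log2 change was -0.10, against 0.05 for all genes, with 15 members lower and 0 higher at an unadjusted p under 0.05 (15.6% and 17.6% of all genes).

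Mrpl39, a large subunit protein found only in mitochondria, measured 57.4, 60.04 and 50.8 CPM in KO TAC and 91.2, 106 and 83.6 CPM in KO sham. It measured 43.8, 46.5 and 48.03 CPM in WT TAC, compared with 85.0 and 91.7 CPM in WT sham. The 6 TAC libraries all lay below the 5 sham libraries, and Mrpl39 fell by 0.83 ± 0.15 (log2, SE, edgeR adjusted p = 0.00215). Mrps31, a small subunit protein found only in mitochondria, measured 36.6, 39.1 and 36.0 CPM in KO TAC, 60.7, 55.4 and 67.9 CPM in KO sham, 33.1, 39.0 and 36.1 CPM in WT TAC, compared with 62.1 and 59.1 CPM in WT sham. Here too every TAC library was below every sham library, with a fall of 0.73 ± 0.14 (log2, SE, edgeR adjusted p = 0.00346).

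Mrpl45 lies at the exit of the peptide tunnel and anchors the ribosome to the inner membrane, where its products are inserted. It measured 50.2, 49.7 and 33.2 CPM in KO TAC, 71.3, 61.5 and 70.4 CPM in KO sham, 46.1, 46.7 and 40.7 CPM in WT TAC, compared with 79.0 and 74.2 CPM in WT sham. The groups did not overlap, and Mrpl45 fell by 0.69 ± 0.16 (log2, SE, edgeR adjusted p = 0.0103). Mrpl37, another mitochondria-specific protein, measured 54.7, 65.3 and 64.9 CPM in KO TAC, 107, 79.4 and 91.2 CPM in KO sham, 48.2, 63.6 and 51.4 CPM in WT TAC, compared with 103 and 82.1 CPM in WT sham. It fell by 0.67 ± 0.16 without overlap (log2, SE, edgeR adjusted p = 0.0127).

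The other 4 calls were weaker. Among fits that kept both WT sham libraries, the calls of Mrpl39, Mrps31, Mrpl45 and Mrpl37 were lost only with library totals in place of TMM. Those of Mrpl4, Mrps5 and Mrpl38 were also lost without KO TAC 3. Those of Mrpl4, Mrps5 and Mrps9 were also lost without KO sham 1 or KO sham 3. Mrps5, a small subunit protein of bacterial descent, measured 32.6, 29.1 and 30.4 CPM in KO TAC, 45.4, 40.6 and 45.4 CPM in KO sham, 12.8, 22.9 and 30.9 CPM in WT TAC, compared with 41.7 and 39.7 CPM in WT sham. It fell by 0.67 ± 0.21 without overlap (log2, SE, edgeR adjusted p = 0.0358). Mrpl4, a large subunit protein of bacterial descent, fell by 0.65 ± 0.20 (edgeR adjusted p = 0.0382) and was the only called member whose TAC range (27.9 to 44.1 CPM) overlapped the sham range (39.3 to 73.5 CPM). Mrpl38 fell by 0.61 ± 0.17 (edgeR adjusted p = 0.0232) and Mrps9 by 0.60 ± 0.18 (edgeR adjusted p = 0.0317), both without overlap. These 2 lay outside the naming rule and were named after their values were seen. In all, TAC was below sham without overlap for 7 members (9.09%) and for 7.01% of all tested genes, while 6.58% of genes were above without overlap.

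**Figure D3:**
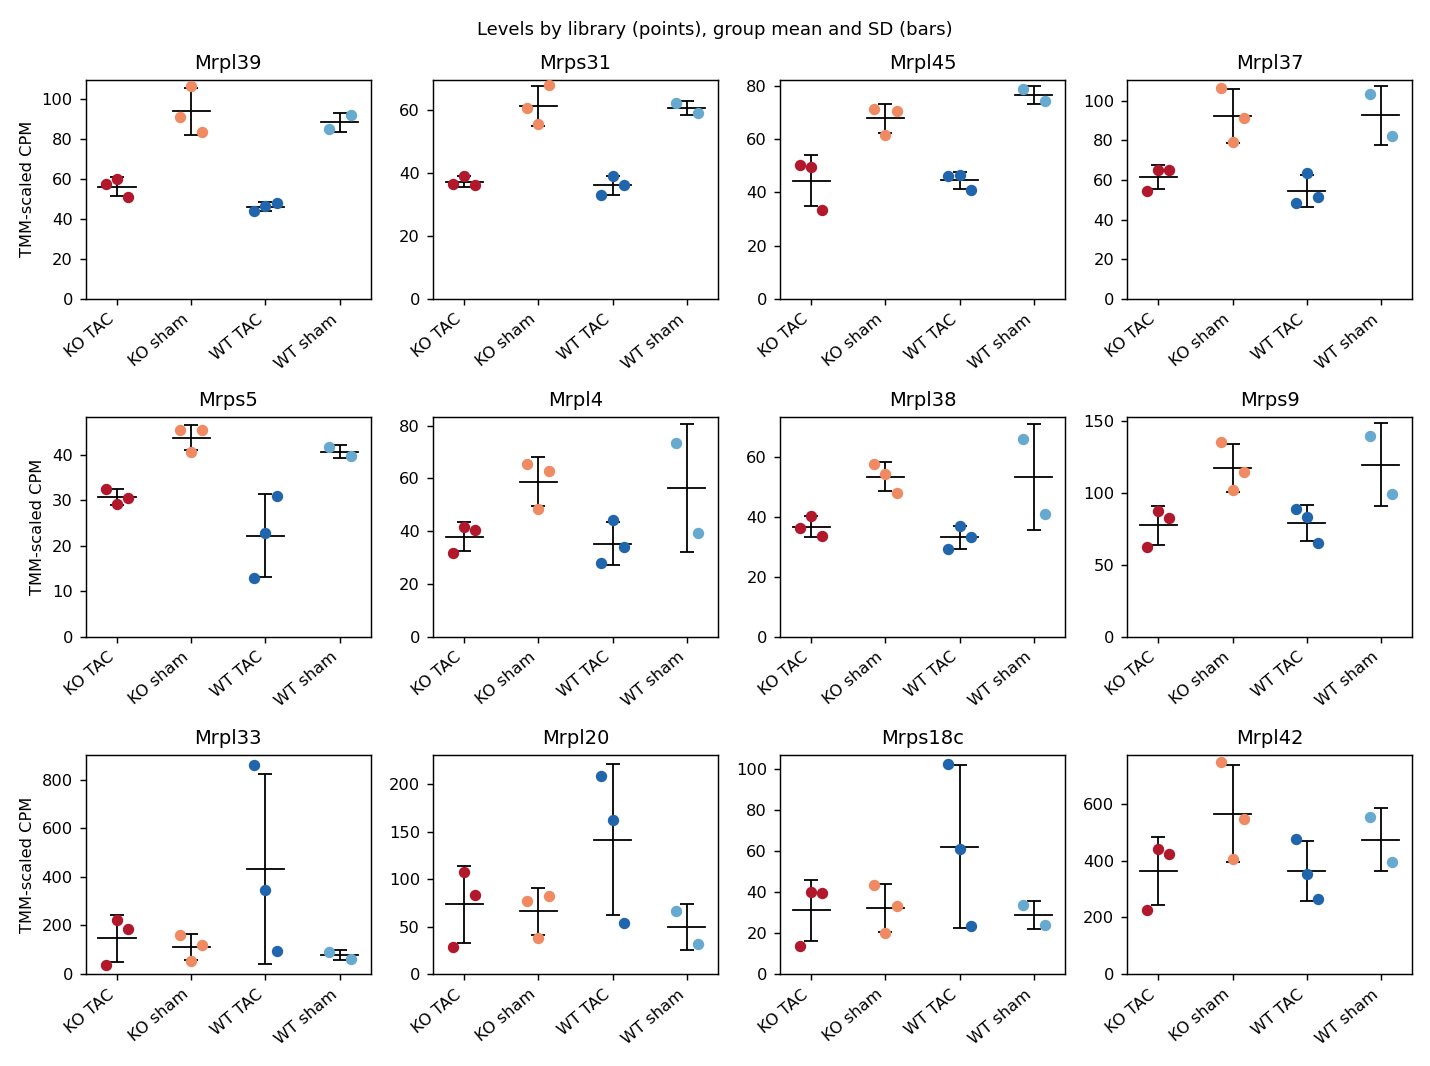
TMM-scaled CPM by library (points) with group mean and SD (bars; n = 3, 3, 3 and 2) for the 8 members called lower after TAC and for Mrpl33, Mrpl20, Mrps18c and Mrpl42. In the 8 called members both TAC groups have the lower means, while WT TAC 1 stands above every other library in Mrpl33, Mrpl20 and Mrps18c.

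The count of 8 depended on single libraries and on how the libraries were scaled. Fits without a WT sham library leave 1 library in that group, so their member counts are not given. With both kept and 1 other left out, the count was lowest at 5, without KO TAC 3, KO sham 1 or KO sham 3. The share of all genes called in those fits is not given here, so a loss particular to the members was not shown. With library totals in place of TMM the count of 8 became 0, with 1 member (Mrpl33) called higher, against 2.63% of all genes lower and 24.5% higher. That scaling gave a median of 0.45 for all genes and 0.30 for the members. Without WT TAC 3 and KO TAC 1, 8 members were called higher and 9 lower, against 18.7% and 19.1% of all genes. With the summed cytoplasmic ribosomal protein level (log2) as a covariate, 52 of 77 members (67.5%) were called lower and 0 higher, against 14.1% of all genes called lower. With offsets that remove the trend with transcript length, 24 members (31.2%) were called lower, against 15.1% of all genes. The covariate is itself measured in these libraries and differed between groups.

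Cardiomyocyte marker mRNA moved in the same direction as the called members. All 8 markers (Myh6, Tnnt2, Tnni3, Actc1, Myl2, Ryr2, Pln and Ttn) had negative changes over both genotypes and 3 passed the test. Their summed level was 37199 to 43701 CPM in KO TAC, 56777 to 68185 CPM in KO sham, 41249 to 50984 CPM in WT TAC, compared with 50215 to 66598 CPM in WT sham. Macrophage markers ran the other way, with 6 of 7 called higher. Their summed level was 418, 1064 and 1459 CPM in KO TAC, 202 to 405 CPM in KO sham, 2013, 2321 and 383 CPM in WT TAC, compared with 199 to 332 CPM in WT sham. KO TAC 1 and WT TAC 3, the lowest libraries of both ribosomal subunit sums, were thus near the sham libraries in macrophage markers. Their red blood cell sums, 254 and 294 CPM, were also the lowest of their groups. In cardiomyocyte markers, at 37199 and 41249 CPM, they lay below every sham library. In fibroblast markers, at 1743 and 2069 CPM, they lay above every sham library. Of 7 fibroblast markers 3 were called higher and 1 lower, with sums of 1696 to 1743 CPM in KO TAC, 1508 to 1661 CPM in KO sham, 1760 to 2493 CPM in WT TAC, compared with 1202 to 1238 CPM in WT sham. In bulk tissue, fewer cells of a type and less RNA per cell cannot be told apart, and the part of these markers in the changes was not tested.

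In WT alone, TAC against sham called 1 member lower (1.30%) and 0 higher, while 3.04% of all genes were called lower and 3.88% higher. That member was Mrpl39, which fell by 0.94 ± 0.23 (log2, SE, edgeR adjusted p = 0.0325). The call was lost without WT TAC 1, WT TAC 2, either WT sham library, KO TAC 2, KO sham 1 or KO sham 3, with adjusted p up to 0.21. The next 4 by p were Mrps31 (-0.75 ± 0.23), Mrpl45 (-0.78 ± 0.25), Mrpl37 (-0.77 ± 0.25) and Mrps5 (-0.87 ± 0.31), with edgeR adjusted p of 0.0643, 0.0788, 0.0859 and 0.108. DESeq2 called 1 higher and 4 lower (9.14% and 5.89% of all genes). With the cytoplasmic covariate 22 members were called lower (5.47% of all genes) and with length offsets 15 (7.35%). Without WT TAC 3 the counts were 3 higher and 3 lower (9.91% and 8.47% of all genes), and without KO TAC 1 as well 15 higher and 4 lower (16% and 14.5% of all genes). Without the filter on low counts Mrpl33, Mrpl20 and Mrps18c were called higher (5.91% of all genes).

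Members went both ways in WT, with 42 positive and 35 negative changes between -0.94 and 2.48. The median was 0.18, against 0.05 for all genes, and changed sign when WT sham 2 was left out (-0.12) or WT TAC 1 or WT TAC 2 was left out (-0.11 and -0.04). With length offsets the WT median was -0.20, with 52 of 77 negative, and with the cytoplasmic covariate -0.62. The largest positive change was that of Mrpl33 (2.48 ± 0.90, edgeR adjusted p = 0.11), the only member with every WT TAC library above both WT sham libraries, a pattern that 19.1% of all genes showed. Lower without overlap were 12 members, or 15.6%, against 21.2% of all genes.

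In libraries labelled KO, TAC against sham called 0 members in either direction (edgeR, with 0 higher and 10 lower at an unadjusted p under 0.05), while 3.32% of all genes were called higher and 1.37% lower. At that unadjusted p 11.2% of all genes were higher and 8.08% lower. DESeq2 called 2 lower, Mrpl39 and Mrps31 (3.97% of all genes). Changes were negative for 70 of 77 members with TMM, but positive for 58 of 77 with library totals. The members' median was -0.26 and that of all genes 0.03 with TMM, and they were 0.22 and 0.49 with library totals. Without KO TAC 1, 38 of 77 were negative and the median was 0.00. With the cytoplasmic covariate 17 members were called lower (8.19% of all genes), with length offsets 4 (4.2%), and without WT TAC 3 and KO TAC 1 2 (7.21%). The smallest p belonged to Mrpl39 (-0.74 ± 0.21, edgeR adjusted p = 0.0658) and Mrps31 (-0.72 ± 0.20, edgeR adjusted p = 0.0658). Mrpl45 (-0.61 ± 0.23), Mrpl37 (-0.58 ± 0.23) and Mrps9 (-0.60 ± 0.25) followed, with edgeR adjusted p of 0.162, 0.187 and 0.218. KO TAC lay below KO sham without overlap for 12 members (15.6%) and for 12.8% of all genes, and above it for 0 members and 13% of all genes.

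Cytoplasmic ribosomal protein genes, of which 77 of 79 were tested, had higher median changes after TAC than the mitochondrial set. In KO the members' median was -0.26 and the cytoplasmic one 0.34, with 71 of 77 positive. Over all alternatives this cytoplasmic median ran from 0.0066, with the cytoplasmic level itself as a covariate, to 0.85, with library totals. The log2 ratio of the summed cytoplasmic level in KO ran from 0.058 to 0.76 with 1 library left out. In WT the members' median was 0.18 and the cytoplasmic one 1.65, with 77 of 77 positive, while the WT cytoplasmic median was -0.02 with the cytoplasmic level itself as a covariate. Of these genes only Rpl3 (1.3%), which encodes a protein of the large cytoplasmic subunit, passed the edgeR test in WT, against 3.88% of all genes called higher. Under other settings more were called higher in WT, namely 18 with DESeq2 (9.14% of all genes) and 58 without the filter on low counts (5.91%). The count was 41 without WT TAC 3 (9.91%) and 70 without WT TAC 3 and KO TAC 1 (16%). Rpl3 measured 106, 247 and 215 CPM in KO TAC, 118, 67.4 and 58.8 CPM in KO sham, 712, 450.1 and 168 CPM in WT TAC, compared with 73.7 and 57.9 CPM in WT sham. Its change was 1.22 ± 0.49 in KO (edgeR adjusted p = 0.192). It rose by 2.75 ± 0.60 in WT (log2, SE, edgeR adjusted p = 0.0212), a call lost without WT TAC 1, WT TAC 2 or either WT sham library. Rpl39 (3.51 ± 1.13), Rpl10 (1.78 ± 0.65) and Rps12 (2.81 ± 1.05) followed in WT with edgeR adjusted p of 0.0771, 0.115 and 0.12. In KO, Rpl10 (0.60 ± 0.55), Rps26 (0.33 ± 0.31) and Rpl13a (0.78 ± 0.80) had edgeR adjusted p of 0.635, 0.649 and 0.678. In WT 34 of the 77 were higher at an unadjusted p under 0.05, and 13.9% of all genes were, with 11.9% lower.

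Rpl3l, the muscle paralog that replaces Rpl3 in cardiomyocyte ribosomes, went the opposite way. It measured 85.1, 50.2 and 51.4 CPM in KO TAC, 253, 223 and 236 CPM in KO sham, 21.9, 36.5 and 54.4 CPM in WT TAC, compared with 252 and 172 CPM in WT sham. It fell by 1.93 ± 0.35 in KO (edgeR adjusted p = 0.0096) and fell by 2.496 ± 0.38 in WT (edgeR adjusted p = 0.00509). The KO call was lost without KO TAC 2 or KO TAC 3, and the WT call without WT sham 1. The acidic stalk protein gene Rplp0 had changes of 0.32 ± 0.60 in KO and 1.21 ± 0.69 in WT, and neither passed the test (edgeR adjusted p = 0.846 and 0.29). Reads of cytoplasmic ribosomal protein genes can be shared with their many processed pseudogenes, and the sources used here do not give how the authors treated such reads. Rpl24, with 29 counts in all, was among those not tested.

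**Figure D4:**
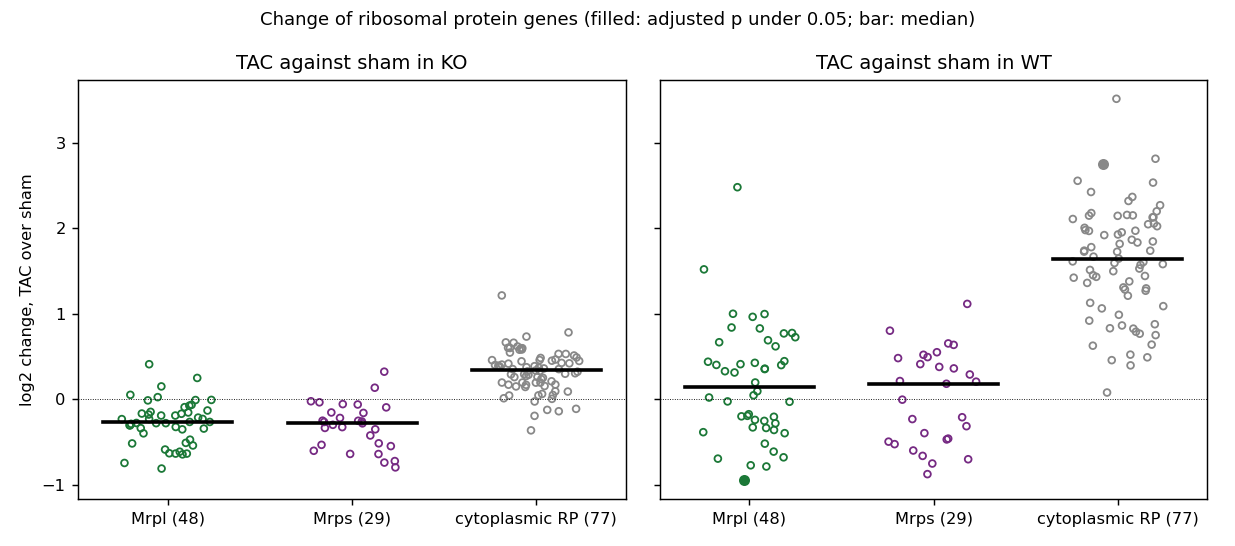
log2 change of each tested gene (points, TAC over sham) for Mrpl, Mrps and cytoplasmic ribosomal protein (RP) genes, in KO (left) and WT (right), with bars at the medians and filled points at an adjusted p under 0.05. Cytoplasmic genes lie around 0.34 in KO and 1.65 in WT, and only Mrpl39 and Rpl3 are filled, both in WT; with library totals the KO medians of the members turn positive.

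Mrpl and Mrps genes had similar median changes, of -0.26 and -0.28 in KO (positive for members as a whole with library totals) and of 0.15 and 0.18 in WT. Over both genotypes 5 of 48 Mrpl (10.4%) and 3 of 29 Mrps genes (10.3%) were called lower, against 8.96% of all tested genes. By descent, the 46 tested members with a bacterial counterpart had median changes of -0.26 in KO and 0.31 in WT, and the 31 mitochondria-specific members had -0.28 and -0.21. Of the 8 called members 3 belonged to the first class (6.52% of it) and 5 to the second (16.1%), against the same 8.96% of all genes. No test compared these classes, and their medians under other settings are not given here.

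Transcript length differed between these gene sets and moved with the WT change. Median transcript lengths were 1230 bases for Mrpl, 1063 for Mrps, 771 for cytoplasmic ribosomal protein genes and 2599 for all tested genes. In WT the members under 750 bases (n = 15) had a median change of 0.45, and other genes of that length 0.87. Members of 1500 to 2500 bases (n = 13) had -0.19 and other genes 0.09. Members were below the other genes in the 4 classes under 2500 bases and above them in the 2 longer classes, at -0.01 against -0.10 (2500 to 5000 bases, n = 14) and -0.21 against -0.26 (over 5000 bases, n = 2). In KO the medians ran from -0.32 to -0.23 in the 5 classes under 5000 bases, and other genes from 0.02 to 0.09. What sets the trend with length was not tested.

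KO against WT after sham called 0 of 77 members (edgeR), with 0 at an unadjusted p under 0.05, while 0% of all genes were called and 1.27% had such a p. Changes ran from -0.41 to 0.56 with a median SE of 0.42 and a median of 0.10, which was -0.17 without WT sham 2 and -0.07 without KO sham 1. The smallest p belonged to Mrpl55 (-0.41 ± 0.34), Mrpl23 (0.53 ± 0.53), Mrps36 (0.56 ± 0.60), Mrpl36 (0.32 ± 0.37) and Mrps30 (0.22 ± 0.26), all with an edgeR adjusted p of 1. Mrpl36 measured 44.8, 27.1 and 38.4 CPM in KO sham and 38.8 and 19.9 CPM in WT sham, and its change was -0.084 without WT sham 2.

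KO against WT after TAC likewise called 0 members (edgeR, 0 at an unadjusted p under 0.05), and 0% of all genes, with 6.36% of genes at such a p. The median was -0.29 with 60 of 77 changes negative, but 0.12 with 56 positive under the cytoplasmic covariate. It was -0.07 (44 negative) without KO TAC 1 and -0.04 (46 negative) without WT TAC 1. Mrpl33 (-1.56 ± 0.74), Mrps18c (-1.002 ± 0.51), Mrpl20 (-0.95 ± 0.55), Mrps11 (-0.71 ± 0.41) and Mrps18a (-0.74 ± 0.44) had the smallest p, with edgeR adjusted p of 0.747 to 0.748. Mrps18c measured 13.8, 39.8 and 39.5 CPM in KO TAC and 102, 60.7 and 23.3 CPM in WT TAC. Mrpl20 measured 28.5, 108 and 83.8 CPM in KO TAC and 209, 163 and 54.1 CPM in WT TAC. In both genes WT TAC 3 lay within the KO TAC range.

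The interaction of genotype and surgery, which asks whether the TAC change differed between libraries labelled KO and WT, called 0 members (edgeR, 0 at an unadjusted p under 0.05) and 0% of all genes, with 2.97% of genes at such a p. The median was -0.37, and -1.37 for cytoplasmic ribosomal protein genes. With the cytoplasmic level as a covariate the members' median was 0.19. The most negative was Mrpl33 (-2.07 ± 1.12, edgeR adjusted p = 0.992). Without the filter on low counts, Mrpl33 was called lower in this comparison (0.252% of all genes) and in KO against WT after TAC (0.644%).

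Genes that work with the mitochondrial ribosome were also followed, in lists compiled by role. Over both genotypes 9 of 17 translation factor genes (52.9%) were lower after TAC and 0 higher, compared with 8.96% and 10.6% of all tested genes, the shares that apply to each list below. Taco1, the activator of cytochrome oxidase subunit translation, measured 25.97 to 28.2 CPM in KO TAC, 39.0 to 45.9 CPM in KO sham, 13.3 to 21.3 CPM in WT TAC, compared with 46.7 to 60.6 CPM in WT sham, and fell by 1.08 ± 0.21 (edgeR adjusted p = 0.00381). The elongation factor gene Tsfm fell by 0.71 ± 0.16 (edgeR adjusted p = 0.00794) and the initiation factor gene Mtif2 by 0.73 ± 0.17 (edgeR adjusted p = 0.00943). Of the aminoacyl-tRNA synthesis genes of mitochondria 7 of 20 (35%) were lower and 0 higher, among them the synthetase gene Cars2 (-1.07 ± 0.18) and the amidotransferase subunit gene Qrsl1 (-0.84 ± 0.19), with edgeR adjusted p of 0.0017 and 0.00742. With 1 library other than a WT sham library left out, these counts ran from 5 to 9 and from 4 to 10. The share of all genes called in such fits is not given here, for these lists or those below.

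Ribosome assembly genes were lower in 8 of 28 (28.6%) and higher in 0. Mettl17 (-0.93 ± 0.24), the rRNA chaperone gene Eral1 (-0.67 ± 0.18) and the GTPase gene Noa1 (-0.71 ± 0.20) had edgeR adjusted p of 0.0185, 0.0192 and 0.0258. This count was unstable. With both WT sham libraries kept and 1 other left out, it ran from 1 without KO sham 3 to 10 without KO TAC 1. Of 5 further mitoribosomal genes with other symbols Ptcd3, a small subunit protein, fell by 0.70 ± 0.16 (edgeR adjusted p = 0.00943). It measured 88.9 to 110 CPM in KO TAC, 133 to 148 CPM in KO sham, 84.0 to 95.02 CPM in WT TAC, compared with 168 to 178 CPM in WT sham, without overlap.

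Genes of mitochondrial transcription and DNA maintenance were lower in 5 of 12 (41.7%) and higher in 0, and 3 to 6 were lower with 1 library left out. Mgme1, an exonuclease of mitochondrial DNA, measured 6.53 to 10.0 CPM in KO TAC, 18.1 to 21.3 CPM in KO sham, 4.32 to 6.02 CPM in WT TAC, compared with 19.7 CPM in both WT sham libraries. It fell by 1.47 ± 0.20 over both genotypes (edgeR adjusted p = 0.000443) and was the only gene of these lists to pass the test in KO alone (-1.14 ± 0.25, edgeR adjusted p = 0.0249). The KO call was lost in 7 of 21 alternatives, among them the fits without KO TAC 2, KO TAC 3 or any 1 KO sham library, with an edgeR adjusted p of up to 0.183. The helicase gene Twnk (-1.14 ± 0.23) and the polymerase gene Polg (-0.87 ± 0.19) had edgeR adjusted p of 0.00468 and 0.00605. Of 12 regulators of mitochondrial biogenesis 2 were lower, Perm1 (-1.44 ± 0.28, edgeR adjusted p = 0.0036) and Esrrg (-1.05 ± 0.27, edgeR adjusted p = 0.0172). That count was 1 without KO TAC 2 or WT sham 2 and 4 without KO TAC 1. Protein import genes were lower in 3 of 20 (15%), namely Hspa9 (-0.90 ± 0.21), Timm44 (-0.51 ± 0.15) and Pmpca (-0.51 ± 0.15), compared with 8.96% of all genes. Most import genes went the other way, with 13 positive and 7 negative changes and a median of 0.23, though 0 were called higher. That median was -0.34 with the cytoplasmic covariate. With both WT sham libraries kept, the count of 3 lower was 1 without KO TAC 2, KO TAC 3 or KO sham 3. Without WT TAC 3 and KO TAC 1, 7 import genes were called higher (18.7% of all genes). The calls of Timm44 and Pmpca were each lost in 8 of 20 alternatives. In WT alone the called genes of these lists included Sars2 (-1.65 ± 0.41), Mtrf1l (-1.16 ± 0.31) and Perm1 (-1.91 ± 0.40), with edgeR adjusted p of 0.0333, 0.0413 and 0.0175. These WT calls were lost in 11, 12 and 4 of 21 alternatives, in each case including the fits without WT TAC 1, WT TAC 2 or either WT sham library. With library totals in place of TMM each list of this kind had 0 or 1 lower and 0 to 2 higher calls over both genotypes.

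The mitochondrial genome supplies the rRNAs of this ribosome and the mRNAs it reads. The small rRNA, mt-Rnr1, measured 1083, 1516 and 3938 CPM in KO TAC, 4367, 1886 and 3296 CPM in KO sham, 1544, 1069 and 1460 CPM in WT TAC, compared with 3281 and 3468 CPM in WT sham. The large rRNA, mt-Rnr2, measured 2254 to 9294 CPM in KO TAC, 6101 to 11567 CPM in KO sham, 2291 to 3519 CPM in WT TAC, compared with 6426 to 8697 CPM in WT sham. Over both genotypes their changes were -0.89 ± 0.34 and -1.06 ± 0.36, and neither passed the test (edgeR adjusted p = 0.083 and 0.0571). Both were called lower with DESeq2, without the filter, with the cytoplasmic covariate, with length offsets and without KO TAC 3, and 1 of them with limma or the title letter. Of the 13 mRNA genes 6 had between 0 and 5 counts and were not tested. How reads aligning to several places were counted is not given, so these counts do not show that those mRNAs were absent. The 7 other genes were all called lower, with changes from -1.45 to -1.07. Their count was 5 without KO TAC 2 or KO TAC 3, 3 without WT sham 2 and 1 with library totals. This list was added after earlier results had been seen.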

How the data were processed

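Bulk total RNA of 11 ventricular samples was analysed. The deposited values are raw counts per Ensembl gene, 1 column per sample. STAR 2.5.1, featureCounts, DESeq2 and build GRCm38 are named, per the submitters' processing notes. The sources used here do not give their roles, the annotation version, the strand setting or how reads aligning to several places were counted. Samples were grouped by their genotype and treatment labels. Where nothing says that samples of a group come from separate mice, p-values measure only the spread between these samples.

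Symbols, gene types and transcript lengths (median over basic protein-coding transcripts) came from GENCODE M21 on GRCm38, in which 46005 of 46517 identifiers had a symbol, and promoters came from RefSeq GRCm38.p6. The counts were analysed with edgeR 4.0.16 (R 4.3.3). The filter filterByExpr left 14619 genes, TMM set the scaling, and a quasi-likelihood model with 1 mean for each group was used (7 residual degrees of freedom). Levels are TMM-scaled CPM computed from the deposited counts. TAC against sham over both genotypes was fitted with genotype and surgery as additive terms. Tests were 2-sided, with Benjamini-Hochberg adjustment within each of 6 comparisons and a threshold of 0.05. Standard errors are the log2 change over the root of F and are approximate. Sums and levels are descriptions without a test. The code was tested on simulated data. Alternatives used limma 3.58.1, DESeq2 1.42.0, other scalings, covariates (title letter, cytoplasmic ribosomal protein level), offsets by transcript length (a smoothing spline with 5 degrees of freedom) and left-out libraries.

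The members and lists were chosen with earlier results of these data known. The text names, per comparison, up to 6 called members with the largest rise and fall at a mean of at least 1 CPM, or the 5 with the smallest p where fewer than 3 were called. It also names the 3 highest and 2 lowest per subunit in CPM per kb, members by role, the 4 cytoplasmic ribosomal protein genes with the smallest p with Rplp0, Rpl3 and Rpl3l, up to 3 called genes per other list, and Lmnb2. Other genes named were chosen after their values were seen. A few selected genes are left unreported here.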

Additional observations from a re-analysis of the deposited data

How the results depend on the processing

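Members called after TAC in WT (0 higher, 1 lower) numbered 1 and 4 with DESeq2 (9.14% and 5.89% of all genes). They numbered 3 and 0 without the filter on low counts (5.91% of all genes higher). Without WT TAC 3 and KO TAC 1 they numbered 15 and 4 (16% and 14.5% of all genes). The lower count was 0 with library totals, with the title letter as a covariate or with only the groups compared, 22 (28.6%, 5.47% of all genes) with the cytoplasmic ribosomal protein covariate and 15 (7.35% of all genes) with length offsets. In KO the lower count of 0 became 2 with DESeq2 (3.97% of all genes) and 17 (22.1%, 8.19% of all genes) with the covariate. It was 4 (4.2%) with length offsets and 2 (7.21%) without both libraries. Over both genotypes the counts (0 higher, 8 lower) were 1 and 0 with library totals (24.5% and 2.63% of all genes). They were 1 and 6 without the filter, where the share of all genes is not given here. With the covariate 52 were lower (14.1% of all genes) and with length offsets 24 (15.1%). Without both libraries the counts were 8 and 9 (18.7% and 19.1% of all genes). Without the filter 1 member was lower in KO against WT after TAC (0.644% of all genes) and in the interaction (0.252%). The median change with the covariate was -0.62 in WT, and 0.19 for the interaction. With 1 library other than a WT sham library left out, calls ran from 0 to 3 higher and 0 to 3 lower in WT. They ran from 0 to 1 higher and 5 to 9 lower over both genotypes, and were 0 in the other comparisons. With any 1 library left out, median changes ran from -0.12 to 0.39 in WT, -0.44 to 0.00 in KO, -0.17 to 0.44 for KO against WT after sham, -0.55 to -0.04 after TAC, -0.82 to -0.12 for the interaction and -0.24 to 0.07 over both genotypes. With 1 library left out, Mrpl36 in KO against WT after sham ran from -0.084 to 0.89, Rplp0 after TAC in KO from -0.14 to 0.69 and Lmnb2 in KO against WT after TAC from -0.066 to 1.24, each negative only without WT sham 2, KO TAC 2 and KO TAC 1 in that order. With the covariate Rplp0 was -0.045 in KO and -0.048 in WT. Causes of these differences were not tested. Dropping the mitochondrial genome or using limma left the number of members called in the TAC comparisons as it was. No paired analysis was possible because the labels give the groups no shared number, litter or batch. Depth and group size limit these fits, with 2 or 3 libraries a group and a median SE of members of 0.42 for KO against WT after sham.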
